A study of Mus musculus with 9 samples.

Results

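Regions of open chromatin listed in 2 mouse osteosarcoma lines and not in the third were described: the regions with a peak in all 3 libraries of the p53R245W/- line (Gla_941) and all 3 of the p53-/- line (Gla_561), and with no peak in any of the 3 libraries of the p53R172H/- line (Gla_424). There were 7717 of them among 124230 merged regions (6.21%), and they made up 16.2% of the 47700 regions that were called in all 6 R245W and null libraries. The measurement was ATAC-seq, in which the Tn5 transposase cuts and tags accessible DNA, and the values were the peak lists, 1 per library. All lines were derived from primary murine osteosarcomas and grown in DMEM with serum, without any treatment named in the labels. The R172H and R245W lines each carried the named missense allele over a p53 allele written as absent, and in the null line no p53 allele was left. The labels do not give the way the alleles were introduced, the promoter of any Cre, or the age of the animals. Because each genotype was 1 line, genotype and line cannot be told apart. Whether libraries of 1 line stem from different cultures is not given in the labels, so a p-value over libraries measures only the spread between these libraries, which may be technical.

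Osteosarcoma is a tumour of bone-forming mesenchymal cells, and loss or mutation of p53 is its most frequent genetic change. R172H is usually classed as a change that unfolds the DNA-binding domain of p53, and R245W as a change of a residue that touches DNA. Open chromatin away from promoters is where cell type-specific enhancers are found, and transcription factors of the RUNX and AP-1 families bind many of them in osteoblasts and other mesenchymal cells.

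A selection of gene starts in members, not ranked by strength, is shown first. Each is given as the 250 bases before the start site, from RefSeq promoter sequences on GRCm38, 5′ to 3′ on the strand of the gene. Runx3 encodes a transcription factor of the Runt family and has a distal and a proximal start. Btbd11 encodes a BTB domain protein and likewise has more than 1 start. For these genes the start that lay in a member and the start that was open in all 9 libraries are set side by side. Cyth1 (cytohesin, an exchange factor for ARF proteins), Gpnmb (osteoactivin, a membrane glycoprotein of osteoblasts and macrophages) and Hapln1 (a link protein of cartilage matrix) are shown for their motif letters, and Cavin4 (a caveola protein of muscle) as a strong member start without a match. Capitals mark matches to the RUNX letters TGTGGTT or their reverse complement AACCACA, and to the AP-1 letters TGAGTCA or TGACTCA. Btbd11, Cyth1 and Gpnmb were chosen after their values were seen.
Runx3 distal start, in a member, chr4:135120395-135120644, plus strand: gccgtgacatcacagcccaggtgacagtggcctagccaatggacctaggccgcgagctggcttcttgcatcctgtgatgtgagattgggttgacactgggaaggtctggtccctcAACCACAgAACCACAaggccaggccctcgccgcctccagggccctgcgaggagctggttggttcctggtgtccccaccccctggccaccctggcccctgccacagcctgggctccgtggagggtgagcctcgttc
Runx3 proximal start, open in all 9 libraries, chr4:135152295-135152544, plus strand: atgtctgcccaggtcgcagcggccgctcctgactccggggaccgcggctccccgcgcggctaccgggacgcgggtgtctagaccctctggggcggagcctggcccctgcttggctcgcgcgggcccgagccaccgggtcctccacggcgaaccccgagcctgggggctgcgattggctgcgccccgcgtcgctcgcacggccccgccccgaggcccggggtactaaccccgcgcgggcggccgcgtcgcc
Btbd11 start in a member, chr10:85598161-85598410, plus strand: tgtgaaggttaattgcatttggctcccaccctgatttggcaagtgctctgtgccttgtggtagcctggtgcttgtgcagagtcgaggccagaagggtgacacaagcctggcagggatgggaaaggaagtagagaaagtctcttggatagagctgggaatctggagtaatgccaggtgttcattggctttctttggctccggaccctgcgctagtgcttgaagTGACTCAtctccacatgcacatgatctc
Btbd11 start open in all 9 libraries, chr10:85386564-85386813, plus strand: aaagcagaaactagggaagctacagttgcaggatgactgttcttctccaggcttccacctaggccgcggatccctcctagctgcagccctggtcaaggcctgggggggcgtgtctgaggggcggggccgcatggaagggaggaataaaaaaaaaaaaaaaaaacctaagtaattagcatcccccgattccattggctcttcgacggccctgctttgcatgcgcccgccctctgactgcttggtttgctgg
Cyth1 start in a member, chr11:118212732-118212981, minus strand: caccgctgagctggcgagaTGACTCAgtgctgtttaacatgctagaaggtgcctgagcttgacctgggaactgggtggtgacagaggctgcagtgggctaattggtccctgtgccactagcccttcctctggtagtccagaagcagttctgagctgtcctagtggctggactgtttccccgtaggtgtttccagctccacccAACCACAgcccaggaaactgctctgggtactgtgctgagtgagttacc
Gpnmb start, in a member, chr6:49036268-49036517, plus strand: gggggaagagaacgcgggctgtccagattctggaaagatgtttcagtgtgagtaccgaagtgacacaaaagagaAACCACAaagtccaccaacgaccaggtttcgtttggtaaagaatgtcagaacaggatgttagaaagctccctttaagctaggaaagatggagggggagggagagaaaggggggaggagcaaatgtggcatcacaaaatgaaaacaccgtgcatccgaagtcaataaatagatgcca
Hapln1 start, with 242 of the 250 bases in a member, chr13:89540386-89540635, plus strand: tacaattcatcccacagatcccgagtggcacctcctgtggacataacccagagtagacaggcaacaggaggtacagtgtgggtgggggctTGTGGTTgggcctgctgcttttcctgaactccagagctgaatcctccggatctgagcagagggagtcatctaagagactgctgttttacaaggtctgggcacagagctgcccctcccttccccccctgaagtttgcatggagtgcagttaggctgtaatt
Cavin4 start, in a member, chr4:48663264-48663513, plus strand: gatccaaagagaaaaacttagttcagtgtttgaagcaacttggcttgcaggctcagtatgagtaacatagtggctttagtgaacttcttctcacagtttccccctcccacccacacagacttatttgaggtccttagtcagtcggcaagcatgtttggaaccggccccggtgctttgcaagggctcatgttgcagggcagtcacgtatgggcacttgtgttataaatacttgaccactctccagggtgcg
The distal Runx3 start carried AACCACA at 135 to 129 and again at 127 to 121 bases before the start, and the proximal start carried neither set of letters. The Gpnmb match lay at 176 to 170 bases, the Hapln1 match at 160 to 154 bases and the RUNX match of Cyth1 at 48 to 42 bases before the start. The AP-1 letters lay 28 to 22 bases before the member start of Btbd11 and 231 to 225 bases before that of Cyth1. A match is a description of letters and was not tested as a bound site.

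The libraries held 75314 to 79424 peaks in the R245W line, 65199 to 65942 in the null line and 72840 to 74352 in the R172H line. Sequencing depth is not known. Each peak's fold and p-value were solved for the pile-up of reads at its summit and its local background, and the most frequent background, a relative measure of depth, was 5.65 to 6.39, 5.02 to 5.8 and 4.77 to 5.36 in the same order. Of 10 osteoblast markers, 7 had a gene end open in all 9 libraries (Runx2, Sp7, Col1a1, Col1a2, Alpl, Spp1 and Sparc), and the ends of Bglap, Ibsp and Dmp1 were open in none. Of markers of other cell types, Cd68 and Cd14 of macrophages, Kdr of endothelium, Krt8 of epithelium, and Pparg and Cebpa of adipocytes were open in all 9, while Ptprc, Pecam1, Cdh5, Cdh1, Myog and Adipoq were open in none. A few differed between libraries: Csf1r was open in R245W only, Epcam in 3 R245W and 2 null libraries, Krt14 in 1 R245W and 3 R172H libraries, Des in 2 R172H libraries, and Myod1 in all but 1 R172H library. An end of Trp53, the gene of p53, was open in all 9 libraries, which does not check the labels.

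A peak missing from a list is a summit that did not pass the caller's threshold, not a measured absence of accessibility. At the most frequent background, the smallest pile-up that was called in an R172H library was 2.61 to 2.73 times the background. Pile-ups in the members, divided by the most frequent background of their library, were mostly above this in the other lines. Their median over background was 11.0, 10.6 and 10.3 in R245W replicates 1 to 3 and 11.8, 11.9 and 11.9 in the null replicates. The lowest of the 6 values of a member had a median of 7.57 (interquartile range 5.0 to 12.7). It exceeded 2 times the R172H limit of 2.73 in 5349 members (69.3%) and 4 times that limit in 2414 (31.3%). That limit holds only at the most frequent background. Peaks are called against their local background, and where it is higher the limit is higher too. The R172H background at the members is not known, so these counts do not give their distance from the R172H limit.

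Within their own libraries the members were of middling strength. Strength is given throughout as the percentile of a peak's −log10 q, as the authors' caller gave it, among all peaks of its library. The median percentile of the members was 48.1, 49.7 and 46.8 in the R245W libraries and 46.3, 46.9 and 46.8 in the null libraries. Regions called in all 9 libraries had medians of 72.9 to 74.2 and 68.2 to 68.5 in the same lines. The lowest percentile over the 6 libraries had a median of 31.2 over the members, exceeded 50 in 1905 of them (24.7%) and 75 in 284 (3.68%). Members spanned a median of 867 bp and together 7.09 Mb.

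Regions just outside the rule were described with no test, since calls chose the members. Another 1719 regions were called in all 6 libraries and in 1 of 3 R172H libraries, and their R172H peaks had a median percentile of 11.5. A further 1791 regions were called in 2 of 3 R172H libraries. The strongest R172H peak of each of these had a median percentile of 21.9. On the other side, 1937 regions were called in 5 of the 6 libraries and in no R172H library, with a median percentile of 29.7 in the libraries that had them, and 2336 were called in 4 of the 6, with a median of 25.8.

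The mirror classes give the background of this pattern. Regions of R172H and null missing in all 3 R245W libraries numbered 1066 (0.858% of all regions, and 2.74% of the 38836 called in all 6). Regions of R172H and R245W missing in all 3 null libraries numbered 3781 (3.04% of all regions, and 8.83% of the 42811 called in all 6). The classes share libraries, so they are set side by side and not compared. There were also 12214 regions called in all 3 R172H libraries and in none of the other 6.

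The weaker a region was in R245W and null, the more often it was missing in R172H. Of regions whose lowest percentile lay below 10, 35.0% were missing. The share was 19.4% between percentiles 40 and 50, 6.22% between 70 and 80 and 0.354% above 90. In each class of 10 percentiles the share was lower at gene ends than away from them. Away from gene ends it went from 37.8% in the lowest class to 1.28% in the highest, and at gene ends from 16.9% to 0.055%. A gene end is here a window of 1000 bp around either end of a protein-coding gene in RefSeq, because the gene table used gives no strand. The highest class of gene ends held 2 missing regions of 3637, and the lowest held 67 of 397.

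**Figure D1:**
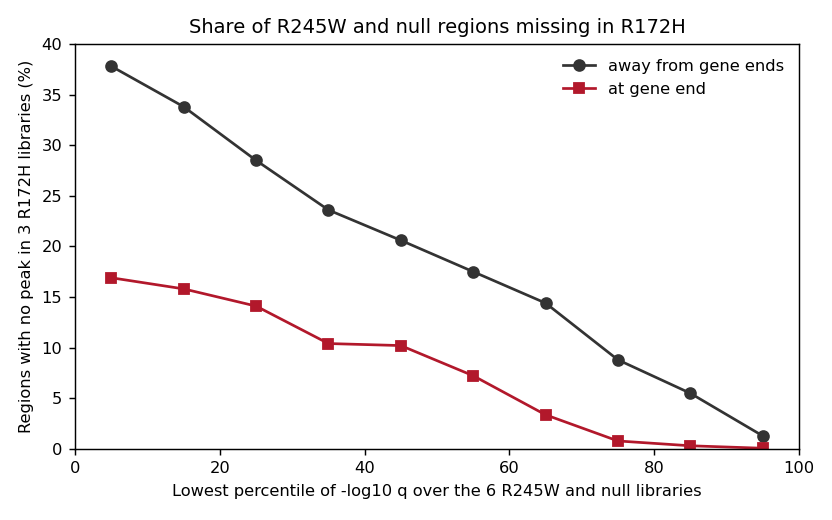
Share of the regions called in all 6 R245W and null libraries that had no peak in any R172H library (vertical axis, percent), by the lowest percentile of −log10 q over the 6 libraries (horizontal axis, 10 classes), for regions at gene ends (squares) and away from them (circles). Both lines descend, and the line of gene ends lies below the other in each class.

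Members lay mostly away from genes' ends. Of the 7717, 418 were at a gene end (5.42%, exact binomial 95% interval 4.92 to 5.95, counting error only). The share was 32.1% for regions called in all 9 libraries and 13.9% for all merged regions. It was 5.35% for regions of R172H and null, 11.7% for R172H and R245W, and 4.22% for R172H alone. A low share at gene ends was thus not particular to the members. A RefSeq promoter, from 250 bases before to 50 after a start, was overlapped by 274 members (3.55%). The promoter list held no start for some genes, so this count leaves out their starts. Inside a gene span lay 4081 members (52.9%). The distance to the nearest gene end had a median of 23628 bp, against 7661 bp for regions of all 9 libraries. In regions of R172H and null, of R172H and R245W, and of R172H alone it was 27427, 27436 and 37011 bp. More than 50000 bp away were 2423 members (31.4%). The gene table gives no exons, so exonic and intronic positions are not distinguished. Seen from the other side, 3.38% of the gene-end regions of R245W and null were missing in R172H, and 20.7% of those elsewhere.

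The nearest R172H peak was a median of 5559 bp from a member (interquartile range 2205 to 13387 bp). It lay within 1000 bp of 807 members (10.5%), so for these the missing call was next to a called one. It lay beyond 50000 bp for 548 members (7.1%).

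The share of missing regions differed between chromosomes. It was highest on chromosomes 1 and 3, at 21.3% each, and lowest on chromosome 19, at 12.3%, with 19.1% on chromosome 4 and 12.9% on chromosomes 2 and X. Recovered pile-ups at regions open in all 9 libraries also differed by chromosome between the lines. With each library centred on its own median over these regions, the median log2 pile-up of R172H minus that of the other lines was −0.14 on chromosome 3, −0.12 on chromosome 4 and 0.08 on chromosome 1, and 0.52 on chromosome 2, 0.56 on chromosome 19 and 0.57 on chromosome 8. Over the 19 autosomes the missing share and this pile-up difference had a Pearson r of −0.8 and a Spearman rho of −0.83. The points share the same 9 libraries. The pile-up moves with the number of chromosome copies as well as with accessibility, and its part in the missing calls was not tested.

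**Figure D2:**
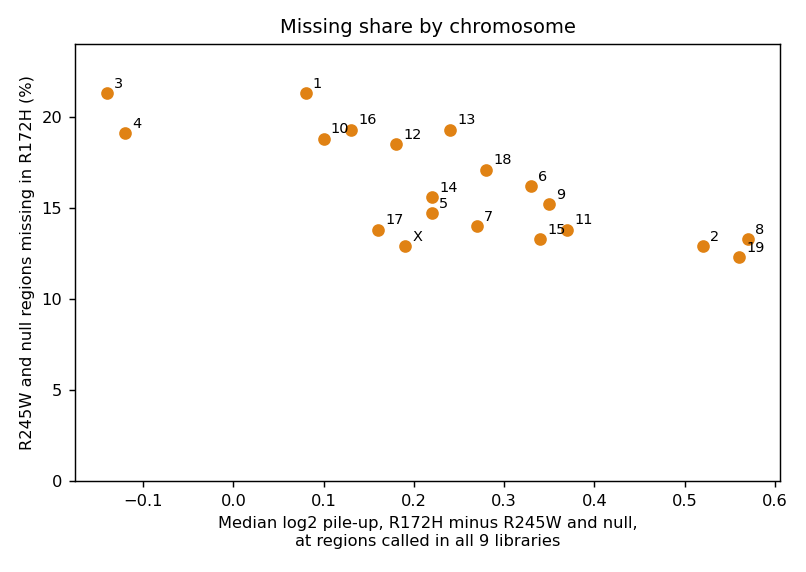
Each point is a chromosome: the median log2 pile-up of R172H minus R245W and null at regions called in all 9 libraries (horizontal axis) and the percent of R245W and null regions missing in R172H (vertical axis). Chromosomes 1, 3 and 4 lie at the upper left, and 2, 8 and 19 at the lower right.

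The rule treats R245W and null alike, so their difference in strength at the members was open to a test. The median percentile was 48.2 ± 1.42 in R245W and 46.7 ± 0.345 in null (SD, n = 3), and the difference of 1.55 was not larger than the spread between libraries (exact permutation test, two-sided p = 0.2, where 3 against 3 libraries cannot go below 0.1). The direction depended on the number of listed peaks: with all lists shortened to 65199 peaks the difference was −5.01 (exact permutation test, two-sided p = 0.1). At single members the lines were often apart. All 3 R245W percentiles were above all 3 null percentiles at 2910 members (37.7%, against 46.9% of regions of all 9 libraries), and the reverse held at 2465 (31.9%, against 19.2%). Both counts carry the same dependence on list length.

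Some members lay in rows with no other region between them. A total of 346 members (4.48%) formed 108 runs of 3 or more neighbours, and 6 runs had 5 members each. The run with the strongest members of these 6 lay on chromosome 5, from 104200998 to 104252518, over and beyond Dmp1. The stretch without any R172H peak around it was 201 kb long and also held Dspp and Ibsp. These genes and Mepe encode secreted phosphoproteins of bone and dentin matrix. Further runs of 5 were on chromosome 1 (112456007 to 112786045), in 711 kb without an R172H peak, on chromosome 19 (33010684 to 33102309), and in or beside Rngtt, the mRNA capping enzyme, and Plcl2, a phospholipase C-like protein. A run of 4, named after its values were seen, lay on chromosome 3 from 34495205 to 34526347 in 1137 kb without an R172H peak. Sox2 is the protein-coding gene in that stretch. The median percentile of its 4 members was 71.4 to 74.6 in the 6 libraries.

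Of 17577 protein-coding genes with an assigned region, that is, a region whose nearest gene end is theirs within 50000 bp, 3812 had a member (21.7%) and 319 had 3 or more (1.81%). Most of the genes with 3 or more members kept an open end in every library: 240 of 319 (75.2%) had an end open in all 9, against 67.8% of all these genes. A region called in R172H alone was assigned to 139 of the 319 (43.6%), against 26.6% of all these genes. Among the genes with the most members were Zfhx4 with 8, Lpar1 and Col6a3 with 7, Ece1, Nfkb1 and Slc6a2 with 6, and Runx3, Chd7, Socs3, Bach1 and Musk with 5. These genes were chosen by their counts of members, so the counts are a description. All protein-coding genes together had 5294 members and 7036 regions called in R172H alone, and 13.9% of their regions called in all 6 R245W and null libraries were members. A member at an end was found for 432 of 21887 protein-coding genes (1.97%), of which 195 (0.891%) had no end open in R172H.

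Runx3 (chromosome 4, 135120645 to 135177990) had the strongest member at a gene end. The region from 135118932 to 135121557 covers the distal start printed above. Its percentiles were 93.9, 93.4 and 92.7 in R245W and 99.2, 98.8 and 98.4 in null, from pile-ups of 375, 417 and 381 reads and of 628, 659 and 606 reads. The null values lay above the R245W values without overlap. The nearest R172H peak was 7178 bp away. The region of the proximal start, from 135151941 to 135153988, was called in all 9 libraries, with percentiles of 85.2, 84.2 and 84.3 in R245W, 82.4, 78.7 and 77.5 in null and 46.0, 41.2 and 48.5 in R172H. So a peak was listed at the proximal start in every line and at the distal start in 2 lines. Of 9 Runx3 regions called in all 6 libraries, 5 were members. The member at 135168486 to 135169883, inside the gene, had percentiles of 74.3, 70.9 and 73.2 in R245W and 92.3, 93.7 and 93.7 in null. The member at 135191014 to 135192105, beyond the gene, had 68.1, 67.6 and 69.8 in R245W and 87.3, 89.2 and 88.4 in null. Both stood higher in all null libraries than in any R245W library.

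The other Runx genes had fewer members. Runx2, the factor that commits cells to the osteoblast fate, had 2 of 7 regions missing in R172H, and its end was open in all 9 libraries. The stronger of the 2, at 44502056 to 44502721 on chromosome 17, had percentiles of 72.8, 70.1 and 68.5 in R245W and 53.4, 61.0 and 63.1 in null. Runx1 had 3 of 8. Across the 6 genes of the Runx list, which holds Cbfb, Tle1 and Tle3 as partners, 10 of 39 regions were missing (25.6%, against 13.9% over all genes). Another 9 regions of these genes were called in R172H alone.

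**Figure D3:**
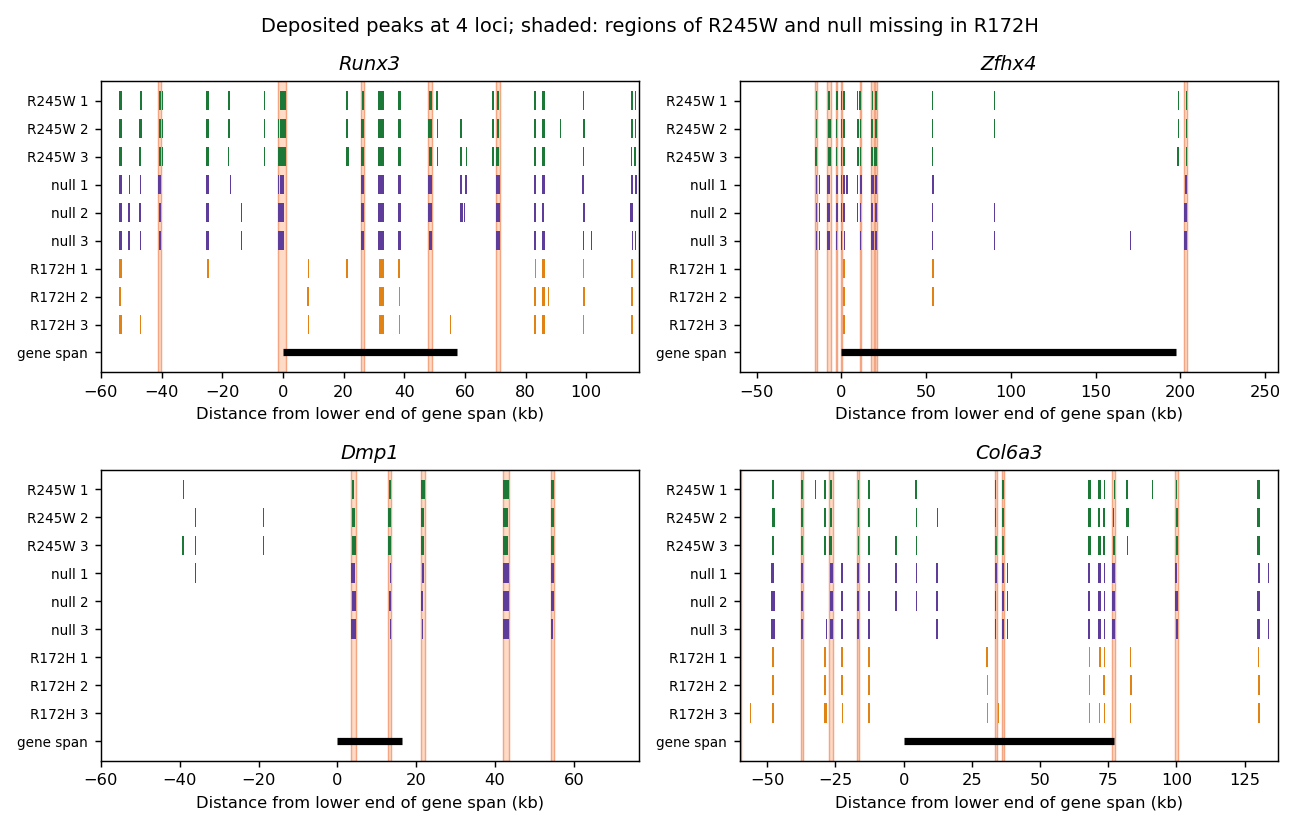
Deposited peaks of the 9 libraries (rows) around Runx3, Zfhx4, Dmp1 and Col6a3, by distance from the lower end of the gene span in kb (horizontal axis), with the gene span as a black bar and the regions of R245W and null missing in R172H shaded. No R172H peak falls in a shaded column, and the R172H rows at Dmp1 are empty.

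Among osteoblast genes, 11 of 24 had a member, and 27 of their 96 regions called in all 6 libraries were missing in R172H (28.1%). Another 5 regions of the list were called in R172H alone. None of these genes had a member at its end, and 16 of the 24 had an end open in all 9 libraries.

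Dmp1, made by osteocytes (chromosome 5, 104197575 to 104214102), had 5 members of 5 regions, and the R172H libraries had no peak assigned to it. The strongest member, at 104251686 to 104252518, lay 37584 bp beyond its end. It had percentiles of 87.7, 89.3 and 83.5 in R245W and 88.3, 86.3 and 85.4 in null, from pile-ups of 196, 237 and 177 and of 228, 236 and 217. The lines overlapped there. The member nearest to the Dmp1 start, at 104200998 to 104202385, was higher in null, at 53.5, 52.8 and 52.1, than in R245W, at 39.1, 35.0 and 29.4. No end of the Dmp1 span was open in any library, but the promoter of a second RefSeq start inside it, at 104202617, overlapped that member by 19 bases.

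Mepe, the next matrix phosphoprotein gene, had 3 members of 6 regions. The one at 104380160 to 104381461 had percentiles of 87.8, 87.5 and 85.4 in R245W and 85.1, 87.0 and 86.1 in null. An R172H peak lay 4790 bp from it. Sp7 and Alpl had 2 members each, and Dlx3, Col1a2, Spp1, Sparc and Omd had 1 each. The ends of these 7 genes were open in all 9 libraries.

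Cartilage genes had 10 of 37 regions missing (27.0%), and 8 other regions were called in R172H alone. Sox9, the master factor of chondrocytes, had 3 of 4. The strongest lay at 112810695 to 112812150 on chromosome 11, with percentiles of 78.4, 81.3 and 82.3 in R245W and 75.8, 75.6 and 72.6 in null. Hapln1 had its member just before the start printed above, at 89539065 to 89540627 on chromosome 13, with percentiles of 62.2, 63.4 and 61.9 in R245W and 36.5, 36.8 and 40.6 in null. No end of Hapln1 was open in R172H. Sox5 had 3 members of 7 regions, and Prg4, which encodes the joint lubricant lubricin, had 2 of 3. Prg4 also went the other way: it had 2 regions called in R172H alone, and an end open in all 3 R172H libraries and in none of the other 6.

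Of the stromal matrix genes, 13 of 20 had a member, with 24 of 122 regions missing (19.7%) and 23 other regions called in R172H alone. Col6a3, a chain of the microfibrillar collagen VI (chromosome 1, 90766860 to 90844001), had 7 of 12. Its strongest member, at 90749964 to 90750686, had percentiles of 78.1, 77.4 and 74.9 in R245W and 89.9, 90.1 and 89.4 in null. The member at its start, at 90843075 to 90844253, was weak in R245W, with percentiles of 6.49, 18.1 and 19.8 and pile-ups of 27, 37 and 38. It was of middling strength in null, at 54.6, 61.5 and 60.7, with pile-ups of 118, 159 and 141. No Col6a3 end was open in R172H. The genes of the chains that partner it, Col6a1 and Col6a2, had 1 member each and kept open ends in all 9 libraries. Col5a1, of fibrillar collagen V, had 4 members of 15 regions.

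Mmp2, a gelatinase that cleaves collagen, and Slc6a2, the noradrenaline transporter, lie near each other on chromosome 8, and both had members. Slc6a2 (92960470 to 93001667) had 6 of 6 regions missing in R172H, and no R172H peak was assigned to it. Its strongest member, at 92983850 to 92985298, had percentiles of 81.1, 83.4 and 80.1 in R245W and 77.6, 76.4 and 79.5 in null. The member at its end, at 92960184 to 92961250, had 43.6, 38.6 and 51.3 in R245W and 29.5, 25.2 and 24.4 in null. Mmp2 had 3 of 6. The strongest, at 92834417 to 92835724 inside the gene, had 83.5, 85.4 and 85.9 in R245W and 88.7, 88.8 and 87.6 in null, and an R172H peak lay 5587 bp away. Chromosome 8 had the highest relative R172H pile-up of all chromosomes, given above. Matrix metalloproteinases and their inhibitors together had 8 of 43 regions missing (18.6%), and 9 other regions were called in R172H alone.

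Zfhx4 encodes a large transcription factor with zinc fingers and homeodomains (chromosome 3, 5218218 to 5415861). It had 8 members of 9 assigned regions called in all 6 libraries. Of its assigned regions, each R172H library called 1 and each of the others called 11 to 12. The strongest, at 5209912 to 5211777, had percentiles of 85.6, 85.4 and 83.3 in R245W and 84.2, 85.9 and 84.4 in null, with pile-ups of 275, 298 and 273 and of 295, 361 and 313. The lines did not separate there. The member at its end, at 5217820 to 5218747, was higher in R245W, at 73.1, 75.1 and 71.4, than in null, at 63.5, 62.4 and 61.2. The nearest R172H peak was 541 bp from that member. Bnc2, a zinc finger factor of fibroblasts, had 3 of 7. The list of such large zinc finger loci had 13 of 45 regions missing (28.9%), and 15 other regions were called in R172H alone. Zfhx4 itself held 8 of the 13, and only 4 of the 10 listed genes had a member. The share of this list therefore rests mostly on Zfhx4.

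Chd7, a chromatin remodeller, had 5 members of 8 regions, and another strong region, assigned to no gene because it lay 76204 bp from Chd7, had percentiles of 96.4, 96.2 and 95.8 in R245W and 95.4, 94.2 and 95.7 in null. Musk, the muscle-specific receptor kinase, had 5 members of 11 regions and none of the 5 lay at an end of the gene. Musk members went both ways between the lines. The one at 58373794 to 58375006 had percentiles of 88.1, 87.9 and 82.7 in R245W and 54.7, 46.1 and 51.5 in null, and the one at 58330138 to 58331897 had 46.0, 49.3 and 47.2 in R245W and 80.6, 80.6 and 80.3 in null. Lpar1, a receptor of lysophosphatidic acid further along chromosome 4, had 7 of 10, of which 4 formed a run from 58461892 to 58470960.

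Strong members at gene ends were few: 11 of the 6656 regions at gene ends whose lowest percentile was above 80 were missing in R172H. After Runx3 came Sybu, which links vesicles to a kinesin motor, at 44786887 to 44788509 on chromosome 15. Its percentiles were 90.8, 91.0 and 92.2 in R245W and 93.6, 95.6 and 96.2 in null. The member over the Cavin4 start, at 48663208 to 48664712 on chromosome 4, had 90.0, 90.7 and 89.2 in R245W and 91.9, 91.6 and 94.2 in null. That member also lies within 1000 bp of an end of Tmeff1. Cadm1, a cell adhesion molecule (chromosome 9, 47530170 to 47862280), had its member at 47529472 to 47531930, with percentiles of 89.1, 88.3 and 86.9 in R245W and 87.9, 90.0 and 86.9 in null, and the nearest R172H peak was 43130 bp away. The Sybu and Cavin4 members were higher in all null libraries than in any R245W library, and the Cadm1 values overlapped. Fam104a, Smyd4, Krt88, Isoc2b and Pop1 each had a member at 1 end, with lowest percentiles of 83.5 to 86.4, and an open end in all R172H libraries as well.

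**Figure D4:**
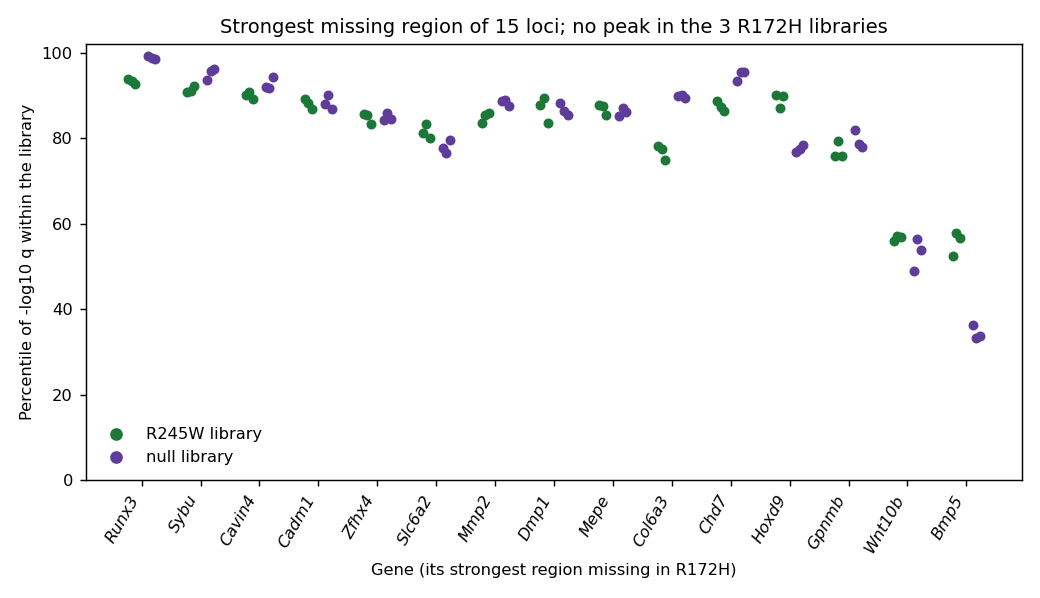
Percentile of −log10 q within the library (vertical axis) of the strongest member of 15 genes (horizontal axis), in the 3 R245W (green) and 3 null (purple) libraries. There are no R172H points because these regions have no peak there. Null lies above R245W for Runx3 and Col6a3, and R245W above null for Hoxd9 and Bmp5.

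The BMP and TGF-β genes had 28 of 114 regions missing (24.6%), in 15 of 33 genes, and 30 other regions were called in R172H alone. Of the ligands, Bmp5 had 4 members of 5 regions, the strongest at 75873210 to 75873996 on chromosome 9 with percentiles of 52.3, 57.9 and 56.7 in R245W and 36.2, 33.2 and 33.7 in null. Bmp6 had 2 members, and Bmp2 and Inhba 1 each. Of the receptors, Tgfbr2 had 2, of which 1 lay at its end, and Acvr1 and Tgfbr3 had 1 each. An end of Tgfbr2 was still open in all 9 libraries. Smad3, which carries the TGF-β signal to the nucleus, had 5 of 17, the strongest at 63737041 to 63738129 on chromosome 9, with 64.0, 65.5 and 64.1 in R245W and 76.6, 72.5 and 78.7 in null. The inhibitory Smad7 and Smad6 had 2 and 1. Ltbp1, which stores latent TGF-β in the matrix, had 3, and the antagonists Grem1, Fst and Chrdl1 had 1, 1 and 2.

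Axon guidance and adhesion genes had 23 of 98 regions missing (23.5%, against 13.9% over all genes), and 38 other regions were called in R172H alone. Nrp2, a co-receptor of semaphorins, had 5 of 12, and its strongest member, at 62724483 to 62725621 on chromosome 1, had percentiles of 73.2, 77.5 and 71.2 in R245W and 87.0, 86.2 and 83.3 in null. Slit2, a secreted ligand of Robo receptors, had 3 of 5. The one at 48331027 to 48332114 on chromosome 5, beyond the gene, had 84.6, 84.8 and 84.2 in R245W and 90.2, 92.3 and 95.1 in null. Unc5b, a netrin receptor, had 3 of 9. No gene of the list had a member at its end.

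Cytokine and chemokine genes had 15 of 75 regions missing (20.0%), and 21 other regions were called in R172H alone. Of the 22 genes, Lif, Cxcl2, Cxcl5 and Ccl7 had a member at an end (4, against 1.97% of all genes). Lif and Ccl7 still had an end open in all 9 libraries. Cxcl2 and Cxcl5 encode chemokines that attract neutrophils, and no end of either was open in R172H. The Cxcl5 member, at 90757946 to 90760100 on chromosome 5, had percentiles of 54.9, 65.6 and 61.7 in R245W and 66.5, 68.8 and 65.8 in null. The Cxcl2 member at its start, at 90902804 to 90903980, had 33.5, 33.2 and 30.2 in R245W and 24.8, 27.5 and 25.3 in null. Cxcl1, a related chemokine gene on the same chromosome, had 2 members and an end open in all 9 libraries.

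Hox genes, which set position along the body and limb axes, had 11 of 60 regions missing (18.3%, against 13.9% over all genes), and 14 other regions were called in R172H alone. Members lay at the ends of Hoxa9, Hoxb2, Hoxd1, Hoxd4 and Hoxd9, 5 of 39 genes, against 1.97% of all genes. Hoxa9 and Hoxb2 still had an end open in all 9 libraries, and Hoxd9 had one open in 1 R172H library. Only Hoxd1 and Hoxd4 had no end open in R172H. The Hoxd9 member, at 74697547 to 74699212 on chromosome 2, was the strongest of the 5 end members. It was higher in R245W, at 90.0, 87.1 and 89.9, than in null, at 76.8, 77.4 and 78.4. The Hoxa9 member, at 52225559 to 52227112 on chromosome 6, had 76.0, 72.3 and 78.0 in R245W and 63.3, 62.8 and 67.2 in null. The Hoxd4 member had 57.6, 59.7 and 61.0 in R245W and 60.1, 54.4 and 59.1 in null, so there the lines overlapped. Next to Hoxa9 another member, at 52228944 to 52230103, held part of the hairpin of Mir196b (52230081 to 52230165). It was 1 of 6 of 1005 RefSeq miRNA hairpins that overlapped a member. It was weak, with percentiles of 22.0, 28.3 and 16.5 in R245W and 23.5, 22.1 and 17.3 in null. Its mature product is shown with the seed, bases 2 to 8, in capitals, because miR-196 is a known regulator of Hox messages.
miR-196b-5p: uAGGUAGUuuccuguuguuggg

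Wnt genes had 18 of 128 regions missing (14.1%, near the 13.9% of all genes), and 46 other regions were called in R172H alone. Wnt6, Wnt10b and Dkk3 had a member at an end and no end open in R172H, which makes 3 of 44 genes, against 0.891% of all genes. Wnt10b is a ligand that favours osteoblast over adipocyte fate. Its end member, at 98777994 to 98779554 on chromosome 15, had percentiles of 56.0, 57.1 and 56.9 in R245W and 48.8, 56.4 and 53.8 in null, and an R172H peak lay 519 bp away. Retinoic acid genes had 13 of 68 missing (19.1%), and 27 other regions were called in R172H alone. Crabp2, a carrier of retinoic acid, had a member at its end, at 87948321 to 87950519 on chromosome 3, with 61.2, 66.9 and 64.2 in R245W and 62.8, 62.8 and 59.6 in null.

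In the share of regions missing, the other lists stayed near or below all genes. Limb and skeletal patterning genes had 18 of 107 regions missing (16.8%), with Prrx1 and Tbx4 at 3 members each. Hedgehog genes had 7 of 51 (13.7%), receptor tyrosine kinases 13 of 100 (13.0%), AP-1 genes 6 of 46 (13.0%, with 3 members at Jun), and Notch genes 6 of 47 (12.8%). Of the 31 receptor tyrosine kinase genes, Pdgfrb, Kdr, Epha5 and Alk had a member at an end (4, against 1.97% of all genes). Epha5 had no end open in R172H, and Pdgfrb, Kdr and Alk had an end open in all 9 libraries. Canonical p53 targets had 10 of 77 (13.0%), 2 each at Ddit4, Pmaip1 and Zmat3 and none at a gene end, and 28 of these 30 genes had an end open in all 9 libraries. Tumour suppressors and oncogenes of osteosarcoma had 7 of 66 (10.6%), and smooth muscle and pericyte genes 3 of 37 (8.11%). Housekeeping genes had 0 of 44, and 19 of the 20 had an end open in all 9. The lists overlap in some genes, were chosen with earlier results of these data known, and were not tested. The missing share differed with strength and with position at gene ends, as given above, and the lists were matched for neither.

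**Figure D5:**
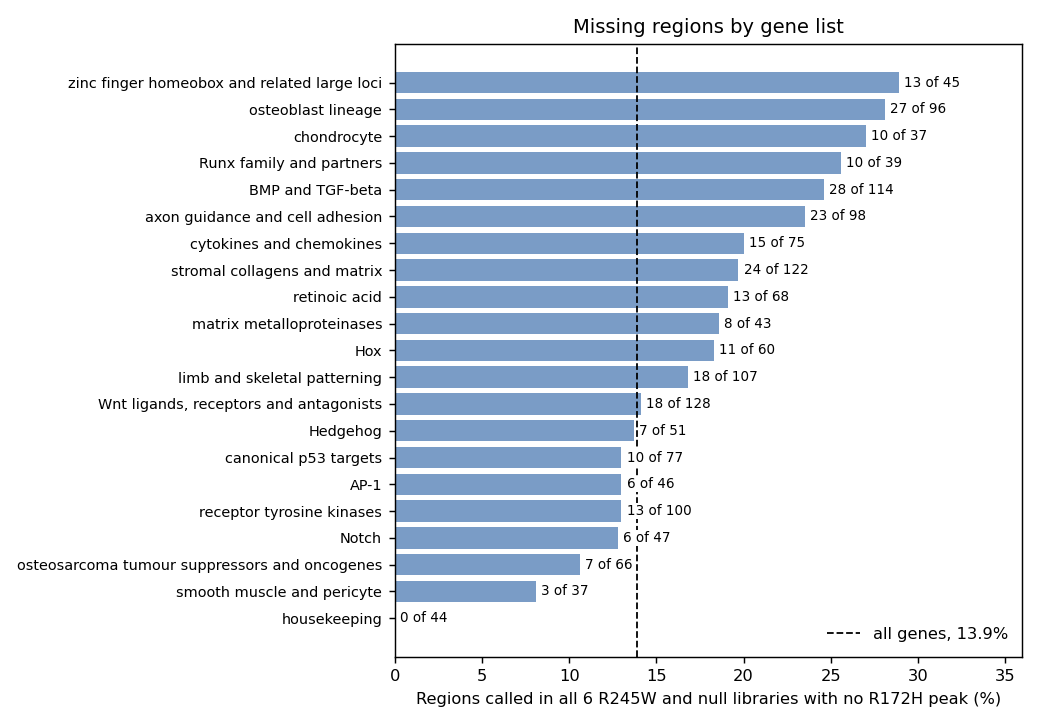
Percent of the regions called in all 6 R245W and null libraries that had no R172H peak (horizontal axis), summed over the genes of each of 21 lists (vertical axis). The counts stand beside the bars and the dashed line is all protein-coding genes, at 13.9%.

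Of the 10 members with the highest lowest percentile, the Runx3 member was the only 1 at a gene end. The first of the 10 lay at 18795123 to 18796224 on chromosome 16, inside the span of Cdc45, a replication factor, with percentiles of 97.4, 98.2 and 95.0 in R245W and 97.7, 97.1 and 96.8 in null. Its pile-ups were 420, 495 and 386 in R245W and 471, 498 and 466 in null, and an R172H peak lay 2565 bp away. The next, at 146776659 to 146777920 on chromosome 5, lay inside Usp12, a deubiquitinase, with 96.0, 94.7 and 95.2 in R245W and 97.6, 98.1 and 98.1 in null. The region at 86034449 to 86035293 on chromosome 16 lay 133324 bp from Adamts5, a cartilage aggrecanase, and 34030 bp from any R172H peak. Its percentiles were 97.9, 97.8 and 98.0 in R245W and 92.2, 93.7 and 93.9 in null. These 3 regions were chosen from the 10 after the values were seen.

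Promoters were examined as a set because only there was sequence at hand. The promoter list held no start for some genes with a member at an end, such as Zfhx4, Slc6a2, Sybu and Cadm1. Starts of such genes are absent from the promoter counts and motif shares. Members overlapped 309 of 32851 RefSeq promoters (0.941%), of which 154 belonged to protein-coding genes (0.724% of 21263), and 221 of the 309 lay wholly inside a member. The 154 belonged to 145 genes. Of these, 45 had more than 1 start in the table, and 20 of the 45 had another start that was open in all 9 libraries, as Runx3, Btbd11, Cyth1 and Slc20a1 did. At Slc20a1, a phosphate transporter named after its values were seen, the start at 129207096 on chromosome 2 lay in a member with percentiles of 90.8, 92.5 and 91.6 in R245W and 82.6, 82.8 and 82.6 in null. Its other start, at 129198773, had percentiles of 95.4 to 98.7 in all 9 libraries. At Btbd11 the member start had 81.2, 80.3 and 76.9 in R245W and 86.3, 86.0 and 87.5 in null, and the start shared by all lines 77.4 to 89.9. At Cyth1 the member start had 64.3, 67.3 and 63.0 in R245W and 70.6, 66.9 and 68.4 in null.

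Member promoters had a median of 6 CG dinucleotides in 300 bases, like the 6 of promoters in regions called in R172H alone and near the 7 of all promoters, against 22 in promoters open in all 9 libraries. Their median GC content was 52.0%, against 62.0% and 53%. Motif letters were searched on both strands over the 300 bases, and each share is of promoters that hold the letters anywhere, also outside the member. AP-1 letters (TGAGTCA) stood in 40 of 309 member promoters (12.9%), against 3.85% of those open in all 9 libraries and 5.19% of all. RUNX letters (TGTGGTT) stood in 27 (8.74%), against 3.4% and 5.29%, and the longer TGTGGTTT, which contains them, in 1.94%, against 1.08% and 1.79%. In the promoters of the mirror classes the AP-1 share was 4.76% of 42 for regions of R172H and null and 6.54% of 413 for those of R172H and R245W, and the RUNX share 11.9% and 3.87%. For regions called in R172H alone the shares were 6.46% for AP-1 and 6.72% for RUNX. The promoters open in all 9 libraries differ from the members in base composition, and these shares were not tested.

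The other motifs gave mixed shares. ETS letters (CCGGAAGT) stood in 2.27% of member promoters, against 8.31% of promoters open in all 9 libraries and 3.92% of all, and CRE letters (TGACGTCA) in 0.324%, against 3.25% and 1.8%. Both contain a CG. E-box letters (CAGCTG) stood in 20.4%, against 14.6% and 16.4%, and NFI letters (TTGGCA) in 17.5%, against 10.5% and 14.1%. Promoters in regions called in R172H alone had E-box letters in 21.7% and NFI letters in 18.9%, and those of the mirror classes had E-box letters in 28.6% and 22.8% and NFI letters in 9.52% and 14.0%. TEAD letters (ACATTCC) stood in 4.53%, against 2.7% and 3.85%, SOX letters (AACAATGG) in 1.62%, against 0.541% and 1.06%, and CTCF letters (CCACNAGG) in 6.15%, against 5.64% and 5.01%. In the 250 bases before the start, 17 of 153 protein-coding member promoters, those outside chromosomes 8 and 18, had AP-1 letters and 8 had RUNX letters. The share of all protein-coding promoters with such a match in the same 250 bases was not computed. These 2 counts therefore cannot show whether there was an excess over other promoters. The distal Runx3 start was the only 1 of the 153 with 2 RUNX matches there. Of the 20997 protein-coding promoters counted for this, fewer than the 21263 given above, 23 (0.11%) had 2 or more.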

How the data were processed

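The measurement was ATAC-seq of 9 libraries, 3 per line, grouped by the genotype in the labels. The submitters' processing notes name Bowtie 1.1.2, MACS2 2.1.0, Trimmomatic 0.33, bcl2fastq 2.17 and deepTools, and the build GRCm38. Tool settings, filters on reads and a Tn5 offset were not given in the sources used here. Such an offset would move peak edges by a few bases. The authors deposited a list for each library, with no pooling of replicates. For each peak the deposited lists give a score, the fold ratio of the summit to background, a −log10 p-value, a −log10 q-value and the summit's offset from the peak start. These are the authors' values and served to describe, rank and filter peaks inside their own list and to solve for pile-ups. No list held a −log10 q under 1.3, and the score was not used further.

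The 9 lists were merged at an overlap of at least 1 bp; a library with a peak in a merged region counts as calling it. Strength was the percentile of −log10 q of a region's strongest peak within its library. Pile-up and background at each summit were solved from the deposited fold and −log10 p-value; 99.995% of peaks or more were solved within 0.001 in each library. Gene spans, promoters and miRNAs came from RefSeq tables on GRCm38.p6, the same build, and gene names matched for every listed gene. A region went to the protein-coding gene whose end was nearest, up to 50000 bp. R245W and null were compared by an exact permutation test over libraries. Members, gene lists and motifs were chosen with earlier results of these data known. Genes named were the 12 with the most members, the 10 with the strongest member at an end, those in the 5 longest runs, of each list up to 3 genes with 2 or more members, list genes with a member at an end, and Trp53. Some genes of the rule are given only within the counts of their list. A gene that the rule names is left out of this text. Other list genes are named to complete the count of their list, and further genes named after their values were seen are said to be so. Merging, recovery, distances and runs were tested on simulated data. Alternatives were fold in place of q, the replicate block, each library left out in turn, other assignment distances and gene-end windows, only autosomes, calls in 2 of 3 libraries of R245W and of null, windows of 250 bp around summits, lists of equal length, and a −log10 q of 5. Software was matplotlib 3.10.9, scipy 1.17.1, pandas 2.3.3, numpy 2.4.6 and Python 3.11.15.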

Additional observations from a re-analysis of the deposited data

How the results depend on the processing

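The number of members was 7609 to 9989 under the alternatives, and 7900 to 8384 with each library left out. Their share at gene ends was 3.91% with a window of 500 bp and 9.21% with 2000 bp, and 5.27% to 5.52% with each library left out. Genes with 3 or more members numbered 498 with calls in 2 of 3 libraries, 101 with assignment within 20000 bp and 511 within 100000 bp, and 336 to 371 with each library left out. Members in runs of 3 or more numbered 614 with calls in 2 of 3 libraries and 367 to 408 with each library left out. The R245W minus null difference in median percentile turned to −5.01 with lists of equal length, where the weakest peaks of the longer R245W lists are removed and the ranks of the rest are lower (exact permutation p = 0.1). It was 0.316 to 2.43 with each library left out, and its exact permutation p was 0.1 to 0.7 over all alternatives. With the replicate block it was 1.55 (exact sign-flip permutation p = 0.25, the smallest that 3 pairs allow). The labels give the lines the same replicate numbers, but these did not pair the libraries: deviations of same-numbered R245W and null libraries from their line means had correlations of −0.02, −0.01 and −0.01 over 36473 regions, and none of the 3 correlated best with its own number. Larger counts when a library is left out follow from a rule that then asks fewer libraries. Depth is unknown, so a missing call cannot be turned into a limit on accessibility. The pile-up limit given above holds only at the most frequent background.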
